A study of Mus musculus with 14 samples.

Results

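Genes of mitochondrial fission, fusion and transport were examined in hippocampal CA3 of adult mice mutant for Dcx, the gene of the microtubule-binding protein doublecortin, and of wild-type mice. The members are 10 genes chosen by name: Dnm1l, Fis1 and Mff of the fission machinery, Mfn1, Mfn2 and Opa1 of the fusion machinery, and Rhot1, Rhot2, Trak1 and Trak2 of the transport machinery. The platform's gene symbols assign 23 of the 25697 array probes to them. Of these, 18 probes were detected (detection p under 0.05) on 4 or more arrays and were analysed, of 12140 such probes on the whole array. All 10 genes kept at least 1 probe, among 8671 named genes with one. The 5 probes left out (2 for Opa1 and 1 each for Mff, Mfn1 and Mfn2) were detected on none of the 14 arrays.

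The samples fall into 3 groups, all from adult Sv129Pas mice. In Dcx mutants the CA3 pyramidal cells lie in separate layers. The inner layer (SPI) was taken from 4 mutant mice, numbered 146, 147, 148 and 166, and the outer layer (SPE) from 5 mutant mice, the same 4 and mouse 165. WT samples were CA3 dissected undivided from 5 wild-type (WT) mice, numbered 142, 144, 145, 199 and 206, so a mutant layer is set against tissue that was not split. The labels give no part of Dcx as the mutated one, and RNA came from pooled dissected pieces, so a value averages all cells in them. In such bulk samples, fewer cells of a type and less RNA per cell cannot be told apart.

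Mitochondria divide when the GTPase DNM1L (DRP1) is recruited from the cytosol to receptors on the outer membrane, among them MFF and FIS1, and constricts the organelle. They fuse through the mitofusins MFN1 and MFN2 on the outer membrane and OPA1 on the inner one. In neurons, mitochondria travel along microtubules when the Miro GTPases RHOT1 and RHOT2 bind the adaptors TRAK1 and TRAK2, which hold the kinesin and dynein motors.

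Dnm1l and Mfn1, whose probes differed in opposite directions between SPI and WT, are shown here by their promoters. The Dnm1l probes were both lower in SPI and the Mfn1 probes both higher. The sequences are RefSeq's (build GRCm38.p6), each 300 bases long, 250 before and 50 after a start, read 5′ to 3′ on the gene's strand. Capitals mark the GC box GGGCGG or its reverse complement, and CCAAT or its reverse complement.
Dnm1l first start, chr16:16358526-16358825, minus strand: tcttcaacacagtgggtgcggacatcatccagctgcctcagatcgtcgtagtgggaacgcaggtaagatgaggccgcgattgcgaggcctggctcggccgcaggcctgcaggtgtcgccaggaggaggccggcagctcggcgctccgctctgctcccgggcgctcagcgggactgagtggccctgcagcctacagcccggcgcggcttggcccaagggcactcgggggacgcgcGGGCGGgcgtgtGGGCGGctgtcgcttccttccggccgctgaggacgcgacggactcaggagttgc
Dnm1l second start, chr16:16358982-16359281, minus strand: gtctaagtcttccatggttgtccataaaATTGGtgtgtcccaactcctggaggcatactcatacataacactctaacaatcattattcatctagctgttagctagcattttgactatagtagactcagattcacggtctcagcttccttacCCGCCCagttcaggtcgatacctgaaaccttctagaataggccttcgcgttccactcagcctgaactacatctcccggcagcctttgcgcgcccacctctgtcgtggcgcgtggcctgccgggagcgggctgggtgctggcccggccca
Mfn1, chr3:32529232-32529531, plus strand: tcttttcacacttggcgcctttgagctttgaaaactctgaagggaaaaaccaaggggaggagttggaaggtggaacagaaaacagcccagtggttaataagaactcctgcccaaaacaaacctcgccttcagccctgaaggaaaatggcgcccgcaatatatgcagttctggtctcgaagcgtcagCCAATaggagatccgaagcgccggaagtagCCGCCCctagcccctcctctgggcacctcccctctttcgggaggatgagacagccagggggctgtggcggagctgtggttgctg
Both Dnm1l windows lie on the minus strand of chromosome 16 around the 5′ end of the gene (16312228 to 16359038), and the Mfn1 window on chromosome 3 at the start of its gene (32529443 to 32579225). The first Dnm1l window had 70.3% G and C, 33 CpG and 2 GC boxes with no CCAAT. The second had 53% G and C, 14 CpG, 1 GC box and 1 CCAAT. The Mfn1 window had 55.3% G and C, 12 CpG, 1 GC box and 1 CCAAT. Searched on both strands, GGGCGG stood in 35.7% and CCAAT in 37.4% of all 32851 RefSeq mouse promoters of this length, whose medians were 52.7% G and C and 7 CpG. TATAAA, held by 13.6% of promoters, and the cyclic AMP response element TGACGTCA, held by 1.79%, were in none of the 3 windows, and no matches overlapped.

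The arrays differed in brightness between groups. Mean raw signal per array was 261 ± 110 intensity units in SPI (SD, n = 4), 411 ± 82.2 in SPE (n = 5) and 456 ± 54.1 in WT (n = 5). No SPI array, at 119 to 362, was as bright as any WT array, at 371 to 515 (exact permutation test, two-sided, p = 0.00794, the smallest 4 against 5 can give). For SPE, at 279 to 482, against WT the same exact permutation test gave p = 0.373. Mouse 147's inner layer (119), mouse 148's inner layer (231) and mouse 148's outer layer (279) gave the 3 dimmest arrays. Of the 2 probes for Dcx itself, limma called 1 lower in SPI than in WT (log2 difference -0.86 ± 0.17 SE, adjusted p = 0.00300); the other differed by -0.43 ± 0.23 (adjusted p = 0.180), and neither passed in SPE against WT (-0.46 ± 0.16 and -0.42 ± 0.22, adjusted p = 0.891 for both). Where the probes lie relative to the mutation is not known here, so they do not check the genotype.

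Cell type markers also differed between the groups. In SPI against WT, limma called higher 7 of 7 interneuron markers, 5 of 6 oligodendrocyte, 3 of 4 oligodendrocyte precursor, 5 of 7 astrocyte, 5 of 6 microglial and 1 of 4 endothelial markers. None of these was called lower. The summed linear signal of the interneuron markers was 10776 to 14176 in SPI, 3780 to 5065 in SPE and 4743 to 5665 in WT, and that of the astrocyte markers 8857 to 13100 in SPI, 4824 to 5711 in SPE and 4692 to 5380 in WT. Oligodendrocyte markers summed to 9161 to 16335 in SPI, 5710 to 6346 in SPE and 4521 to 6365 in WT. The 5 measured pyramidal neuron markers overlapped between groups in their sum, at 20145 to 21522 in SPI, 18690 to 21950 in SPE and 18852 to 23478 in WT, with 1 (Camk2a) called higher and 1 (Slc17a7) lower in SPI than in WT. The 5 measured pan-neuronal markers summed to 32667 to 36725 in SPI, 36401 to 39948 in SPE and 37681 to 40079 in WT. Every SPI array lay below every WT array in that sum, and 2 of the 5 (Syp and Rbfox3) were called lower and 0 higher. The defining markers Neurod6, Gad2, Ermn, Olig2, P2ry12 and Snap25 did not pass the detection filter. The part of these cell types in the member differences was not tested. For brightness, the values of SPI against WT with it as a covariate or without the 3 dimmest arrays stand beside each member whose call they ended.

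Members differed between SPI and WT in both directions. A probe is called here when limma's Benjamini-Hochberg adjusted p over all 12140 probes is under 0.05. In SPI against WT, 8 of the 18 member probes were called, 3 higher and 5 lower, belonging to 6 genes, where 26.1% of all probes were called (11.5% higher and 14.6% lower). Dnm1l (both probes), 1 probe each of Fis1 and Mff, and Opa1 were lower, and Mfn1 (both probes) and 1 probe of Rhot2 were higher. The 3 higher probes stood below 0 when arrays were scaled by the median of all probes, and Opa1 stood above 0 under median scaling. Opa1 was detected on no SPI array and passed the filter through SPE and WT arrays alone. For 6 of the 18 probes SPI and WT shared no range, where 22.6% of all probes were so separated. The median log2 difference was -0.14 over the members and -0.016 over all probes, and its median size 0.31 over the members and 0.28 over all probes. In SPE against WT, 0 of the 18 were called, as was 0% of all probes. At an unadjusted p under 0.05, limma gave 1 member probe and 487 of all probes in that comparison.

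**Figure D1:**
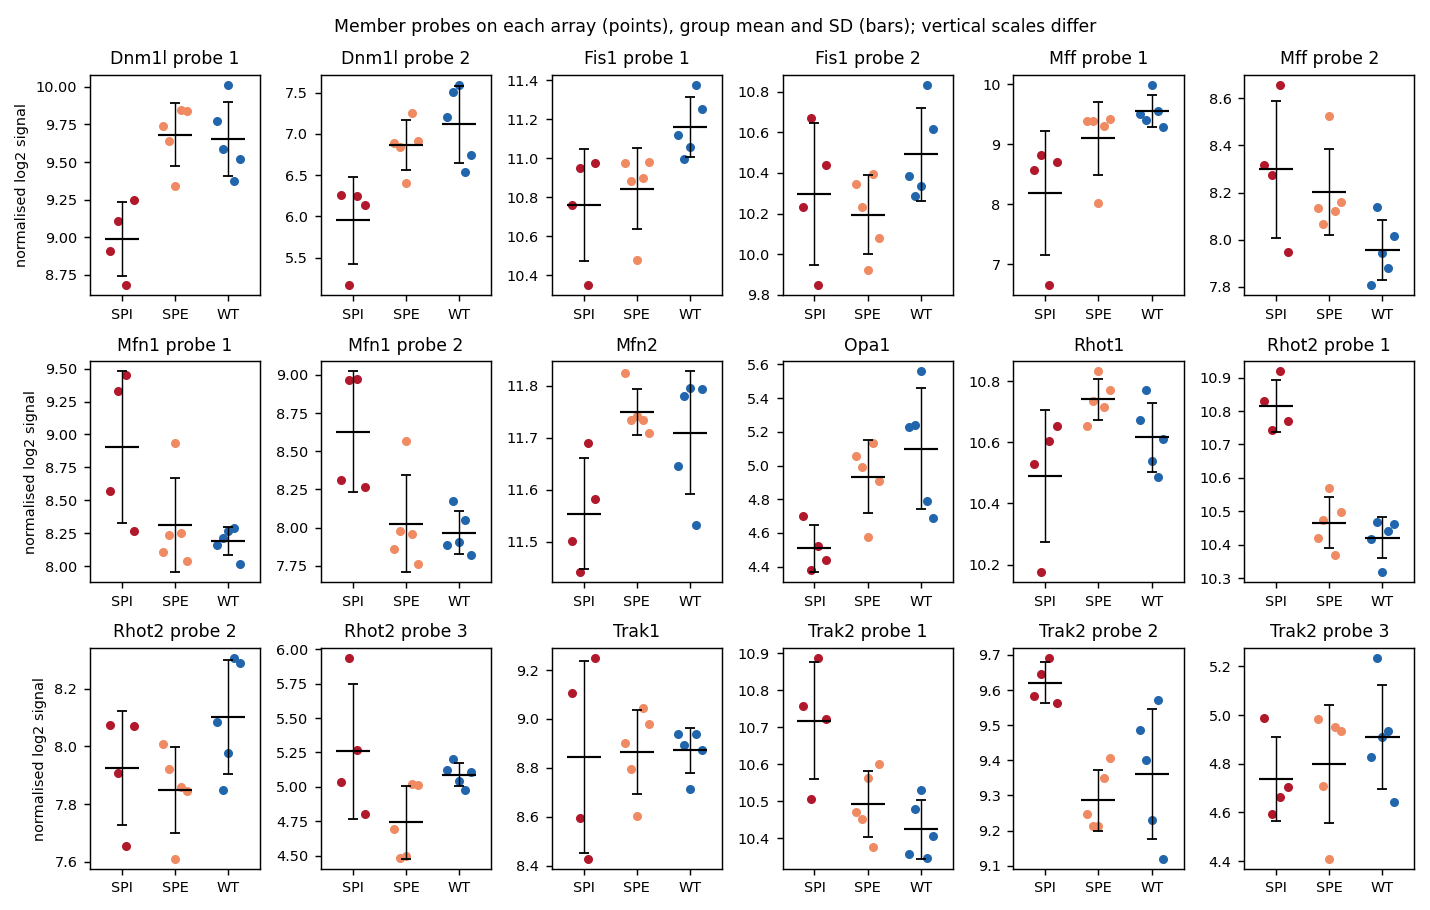
Normalised log2 signal (vertical axes, scales differ) of the 18 member probes on each array (points) of SPI, SPE and WT, with the group mean (long bar) and SD (whiskers), where probe 1 of a gene is its brightest. Both Dnm1l probes lie lower on every SPI array than on any SPE or WT array, and Rhot2 probe 1 lies higher.

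Dnm1l, of the fission machinery, encodes the GTPase that severs mitochondria. Values are normalised log2 signals, given per array in the order of mouse numbers above. Its brighter probe (ILMN_3111421) had 8.91, 9.11, 8.68 and 9.25 in SPI, against 9.74, 9.64, 9.34, 9.85 and 9.84 in SPE and 9.77, 9.59, 10.01, 9.37 and 9.52 in WT. Every SPI array lay below every SPE and every WT array, while SPE and WT overlapped. The probe was 1.57-fold lower in SPI than in WT (log2 difference -0.65 ± 0.15 SE, limma adjusted p = 0.00672). It was lower in SPI than in SPE too (-0.68 ± 0.13, adjusted p = 0.00225), and SPE differed from WT by 0.03 ± 0.143 (adjusted p = 0.974).

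The dimmer Dnm1l probe (ILMN_2660267), which the platform assigns to another RefSeq transcript of the gene, had 6.26, 5.17, 6.25 and 6.13 in SPI, against 6.89, 6.84, 6.40, 7.25 and 6.91 in SPE and 7.21, 7.50, 7.60, 6.53 and 6.74 in WT. Again each SPI array lay below all SPE and WT arrays, and SPI 147 lay below the other SPI arrays. On SPI 147 the probe's raw signal was 86.2, where the array median was 84.4. The probe was detected on 3 of 4 SPI arrays, 5 of 5 SPE arrays and 5 of 5 WT arrays. It was 2.19-fold lower in SPI than in WT (-1.13 ± 0.27, limma adjusted p = 0.00823) and lower than in SPE (-0.88 ± 0.23, adjusted p = 0.0149), a call lost with a fixed block for the mouse (-0.76, adjusted p = 0.0930). SPE against WT gave -0.26 ± 0.26 (adjusted p = 0.891). Over the 14 arrays the 2 probes correlated at 0.76. With the array's log2 mean signal as a covariate, the differences from WT were -0.61 (adjusted p = 0.0878) for the brighter and -0.43 (adjusted p = 0.296) for the dimmer probe, so neither call stood there, and median scaling also ended the call of the dimmer one (-0.58, adjusted p = 0.0907). Leaving out any 1 of the 14 arrays ended neither call.

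Mff encodes an outer membrane receptor for DNM1L, and its 2 analysed probes went opposite ways. On the brighter probe (ILMN_2732961) the values were 8.57, 8.82, 6.66 and 8.71 in SPI, against 9.39, 9.38, 8.02, 9.30 and 9.41 in SPE and 9.50, 9.41, 9.99, 9.55 and 9.28 in WT. All SPI arrays lay below all WT arrays, and mouse 148 had the lowest array of both layers. This probe was 2.54-fold lower in SPI than in WT (-1.34 ± 0.35, limma adjusted p = 0.0129) and lower than in SPE (-0.90 ± 0.30, adjusted p = 0.0429). Without SPI 148 the difference from WT was -0.86 (adjusted p = 0.0428) and that from SPE -0.41 (adjusted p = 0.326), which ended the second call. That call was also lost without SPE 146, SPE 165, SPE 166, WT 142, WT 144, WT 199 or WT 206, each in turn (-0.85 to -0.90, adjusted p = 0.0503 to 0.0884), and without the block for the animal (-0.91, adjusted p = 0.143). With mean signal as a covariate the difference from WT was -1.30 (adjusted p = 0.106).

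The second Mff probe (ILMN_2998593) had 8.32, 8.27, 8.66 and 7.95 in SPI, against 8.14, 8.07, 8.52, 8.12 and 8.16 in SPE and 7.81, 8.14, 7.94, 7.88 and 8.02 in WT. SPI overlapped both other groups, and the arrays of mouse 148 were the highest of their layers. It was not called (0.34 ± 0.14 against WT, adjusted p = 0.0798; 0.092 ± 0.115 against SPE, adjusted p = 0.594), except without SPI 166 (0.45 against WT, adjusted p = 0.0208). Over 14 arrays the Mff probes correlated at -0.85, and over the 10 SPE and WT arrays alone at -0.84. The second value includes SPE 148, which stood far from the other SPE arrays on both probes (8.02 and 8.52). How the probes ran together without that array was not tested. Their mean was lower in SPI than in WT (-0.50, limma adjusted p = 0.0281).

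Fis1 encodes a small outer membrane anchor protein. Its brighter probe (ILMN_2939295) had 10.76, 10.95, 10.35 and 10.97 in SPI, against 10.98, 10.88, 10.48, 10.90 and 10.98 in SPE and 11.12, 10.99, 11.06, 11.38 and 11.25 in WT. Both mutant layers lay below every WT array, by a small margin for the nearest arrays, and they overlapped each other. SPI was 1.32-fold lower than WT (-0.40 ± 0.14, limma adjusted p = 0.0487), and SPE differed from WT by -0.32 ± 0.13, which missed the threshold (adjusted p = 0.891). This was the 1 member probe whose SPE and WT arrays did not overlap, where 1.98% of all probes had that property. The SPI call held in 11 of its 29 alternatives, and in 4 of the 14 that left out 1 array; it was lost among others without SPI 148 (-0.27, adjusted p = 0.175) and without WT 199 (-0.34, adjusted p = 0.104). It was also lost without the 3 dimmest arrays (-0.29, adjusted p = 0.115) and with mean signal as a covariate (-0.43, adjusted p = 0.168). On the second Fis1 probe (ILMN_2939294), SPI at 9.85 to 10.67 and SPE at 9.92 to 10.39 overlapped WT at 10.28 to 10.83, and no comparison was called (-0.18 ± 0.17 for SPI against WT, adjusted p = 0.453). The 2 probes correlated at 0.86.

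Mfn1, of the fusion machinery, encodes a mitofusin that tethers outer membranes. Its brighter probe (ILMN_2950837) had 8.57, 9.33, 9.45 and 8.27 in SPI, against 8.11, 8.23, 8.93, 8.25 and 8.04 in SPE and 8.16, 8.22, 8.26, 8.29 and 8.02 in WT. The high values were those of SPI 147, SPI 148 and SPE 148, the 3 dimmest arrays, and SPI 166 lay within the WT range. It was 1.64-fold higher in SPI than in WT (0.71 ± 0.21, limma adjusted p = 0.0253; -0.54 when scaled by the median of all probes) and higher than in SPE (0.59 ± 0.18, adjusted p = 0.0320).

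On the second Mfn1 probe (ILMN_2719296) the values were 8.31, 8.96, 8.97 and 8.27 in SPI, against 7.86, 7.98, 8.57, 7.96 and 7.76 in SPE and 7.88, 8.17, 7.91, 8.05 and 7.82 in WT. Each SPI array was higher than any WT array, and the same 3 arrays were the highest. It was 1.58-fold higher in SPI than in WT (0.66 ± 0.18, limma adjusted p = 0.0145; -0.58 under that scaling) and higher than in SPE (0.60 ± 0.15, adjusted p = 0.0117), and the 2 probes correlated at 0.97. Before normalisation the raw signal of the brighter probe was 144 to 419 in SPI, 354 to 507 in SPE and 377 to 537 in WT, so the rise is one relative to the rest of each array. Without the 3 dimmest arrays the differences from WT were 0.23 (adjusted p = 0.205) and 0.32 (adjusted p = 0.0768), and with log2 mean signal as a covariate 0.22 and 0.26. Both calls were lost without SPI 148 (0.54, adjusted p = 0.102; 0.55, adjusted p = 0.0578), and that of the brighter probe also without SPI 147 (0.55, adjusted p = 0.0519) or WT 206 (0.67, adjusted p = 0.0539). Against SPE both were lost without SPI 148 (0.42, adjusted p = 0.228; 0.49, adjusted p = 0.108), and that of the brighter also without SPI 147 (0.43, adjusted p = 0.0550), SPE 146, SPE 165 or SPE 166 (0.56, 0.58 and 0.57). Both calls against SPE were also lost with a fixed block for the mouse (0.59, adjusted p = 0.0869; 0.59, adjusted p = 0.0591) and without any block (0.59, adjusted p = 0.108; 0.60, adjusted p = 0.0509).

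Mfn2, the second mitofusin, was measured by 1 probe, which had 11.50, 11.44, 11.69 and 11.58 in SPI, against 11.82, 11.73, 11.74, 11.73 and 11.71 in SPE and 11.65, 11.78, 11.80, 11.53 and 11.79 in WT. SPI lay below every SPE array and overlapped WT. Neither difference was called: limma gave -0.16 ± 0.10 for SPI against WT (adjusted p = 0.256) and -0.20 ± 0.083 for SPI against SPE (adjusted p = 0.106). Among the alternatives Mfn2 was called in 1 of 29 against WT and in 3 of 30 against SPE. Opa1, the inner membrane GTPase of fusion, was detected on 0 of 4 SPI arrays, 4 of 5 SPE arrays and 5 of 5 WT arrays. Its measured means were 4.51 in SPI, 4.93 in SPE and 5.10 in WT, close to the detection limit throughout. Opa1 was called lower in SPI than in WT (limma adjusted p = 0.0241). It passed the detection filter through SPE and WT arrays alone, so the call gives no separate support for a lower level. Set against the detection limit of the SPI arrays, the WT mean was 1.03-fold higher, a bound between group means with no error estimate. The same bound for the SPE mean was below 0 (-0.12, log2). Single arrays overlapped, with WT 206 at 4.69 and SPI 146 at 4.70. Under median scaling the sign of the difference from WT turned (0.55, adjusted p = 0.262) and the call was lost. The call was also lost without WT 142 (-0.52, adjusted p = 0.0560), WT 144 (-0.53, adjusted p = 0.0518) or WT 145 (-0.45, adjusted p = 0.0613), without the 3 dimmest arrays (-0.60, adjusted p = 0.0604) and with mean signal as a covariate (-0.34, adjusted p = 0.330).

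**Figure D2:**
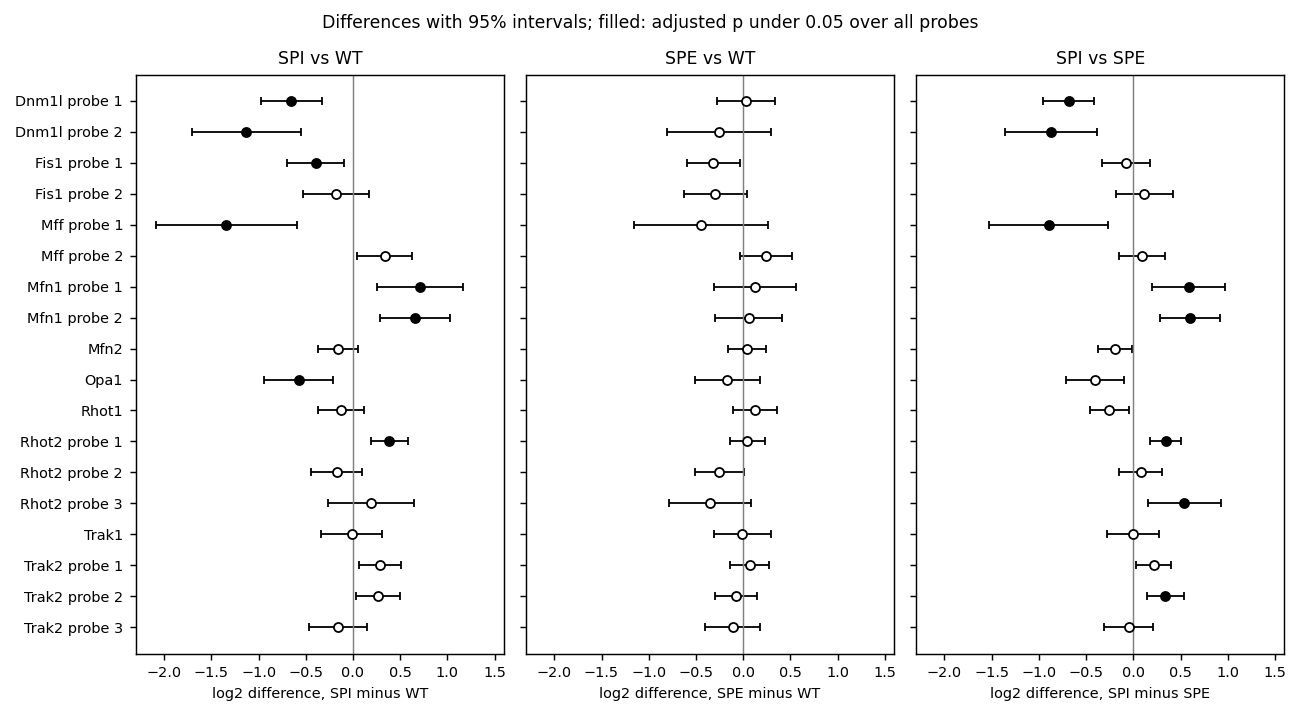
Log2 differences (horizontal axes) with 95% intervals for each member probe in SPI minus WT, SPE minus WT and SPI minus SPE; filled points have a limma adjusted p under 0.05 over all 12140 probes. Filled points stand on both sides of 0 in the 2 SPI panels, and the SPE panel has none.

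Rhot2, of the transport machinery, encodes a Miro GTPase on the outer membrane and was measured by 3 probes. Its brightest (ILMN_2740348) had 10.83, 10.74, 10.92 and 10.77 in SPI, against 10.42, 10.47, 10.57, 10.37 and 10.50 in SPE and 10.42, 10.47, 10.32, 10.44 and 10.46 in WT. All SPI arrays lay above all others, with an SD of 0.078 among them. The probe was 1.31-fold higher in SPI than in WT (0.39 ± 0.091, limma adjusted p = 0.00744; -0.77 when scaled by the median of all probes) and higher than in SPE (0.34 ± 0.077, adjusted p = 0.00681). Raw signal was 262 to 1737 in SPI, 1028 to 1982 in SPE and 1430 to 2124 in WT. Against WT, no left-out array ended the call and the difference was as large without the 3 dimmest arrays (0.37) and with mean signal as a covariate (0.40, adjusted p = 0.0676, not called); against SPE the call was lost without SPI 148 (0.31, adjusted p = 0.0525) and with a fixed block for the mouse (0.34, adjusted p = 0.118).

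The other Rhot2 probes were not called against WT. On ILMN_2839134, SPI at 7.65 to 8.07 and SPE at 7.61 to 8.01 overlapped WT at 7.85 to 8.31, and SPI against WT gave -0.17 ± 0.13 (limma adjusted p = 0.331). On ILMN_2662962, detected on 10 arrays, SPI spanned 4.80 to 5.93, SPE 4.49 to 5.02 and WT 4.98 to 5.20. It was called higher in SPI than in SPE (0.54 ± 0.18, adjusted p = 0.0456), but not than in WT (0.19 ± 0.21, adjusted p = 0.543), and lost that call without SPI 147 (0.31, adjusted p = 0.117), with a fixed block for the mouse (0.49, adjusted p = 0.225), without any block (0.52, adjusted p = 0.0958) and under most other alternatives. Correlations among the 3 probes over 14 arrays were -0.27, 0.29 and 0.052, and their mean differed from WT by 0.13 (adjusted p = 0.348).

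Rhot1, the other Miro GTPase, had 10.53, 10.18, 10.60 and 10.65 in SPI, against 10.65, 10.74, 10.83, 10.71 and 10.77 in SPE and 10.67, 10.77, 10.54, 10.49 and 10.61 in WT. SPI 147 was lowest of all and the groups overlapped. It differed by -0.13 ± 0.11 in SPI against WT (limma adjusted p = 0.435) and by -0.25 ± 0.096 in SPI against SPE (adjusted p = 0.0729), neither of them called. Among the alternatives Rhot1 was called in 1 of 29 against WT and in 4 of 30 against SPE.

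Trak2 encodes an adaptor between Miro and the motors. Its brightest probe (ILMN_2872698) had 10.76, 10.50, 10.89 and 10.72 in SPI, against 10.47, 10.45, 10.56, 10.38 and 10.60 in SPE and 10.36, 10.48, 10.53, 10.35 and 10.40 in WT, so that 3 of the 4 SPI arrays lay above all others. It just missed the threshold (0.29 ± 0.10 for SPI against WT, limma adjusted p = 0.0515; 0.22 ± 0.086 against SPE, adjusted p = 0.0850). Among the alternatives it was called in 10 of 29 against WT and in 6 of 30 against SPE. The deposited normalised values were among them (0.27 against WT, adjusted p = 0.0151). Its second probe (ILMN_2641431) was 9.56 to 9.69 in SPI, above every SPE array at 9.21 to 9.41, while WT at 9.12 to 9.57 reached into the SPI range. It was called higher in SPI than in SPE (0.34 ± 0.094, adjusted p = 0.0193; -0.69 when scaled by the median of all probes), but not than in WT (0.26 ± 0.11, adjusted p = 0.0901). Without SPI 148 the SPE comparison gave 0.31 (adjusted p = 0.102), and without SPE 148 it gave 0.32 (adjusted p = 0.0581). That call was lost with a fixed block for the mouse (0.35, adjusted p = 0.121) and without any block (0.34, adjusted p = 0.0614). The third probe, detected on 8 arrays, was called in no comparison. Trak1, the sister adaptor, was 8.43 to 9.25 in SPI, 8.60 to 9.04 in SPE and 8.72 to 8.94 in WT, with -0.013 ± 0.152 for SPI against WT (adjusted p = 0.958). The 95% interval of that difference was -0.34 to 0.31.

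Within the 4 mutant mice that gave both layers, the inner layer could be set against the outer one of the same animal. In each of them the inner array was the dimmer. Mean raw signal was 362 and 400 (mouse 146), 119 and 414 (147), 231 and 279 (148), and 331 and 478 (166). The mean difference was -132 (exact paired permutation test, p = 0.125, the smallest 4 pairs can give). In SPI against SPE with log2 mean signal as a covariate, limma no longer called the dimmer Dnm1l probe (-0.30, adjusted p = 0.367). Nor did it call the Mfn1 probes (0.19 and 0.27, adjusted p = 0.510 and 0.211) or brighter Mff (-0.86, adjusted p = 0.151). Rhot2 ILMN_2662962 (0.23, adjusted p = 0.549) and Trak2 ILMN_2641431 (0.32, adjusted p = 0.105) were uncalled there too. Leaving out the 3 dimmest arrays also ended these calls, except that of Mff. Whether brightness causes the differences between layers was not tested. The brighter Dnm1l probe differed by -0.83, -0.54, -0.66 and -0.59 (SPI minus SPE, mice 146, 147, 148 and 166), and the dimmer by -0.63, -1.67, -0.15 and -0.78. Each Dnm1l value was below 0, though the dimmer probe was detected on only 3 of the 4 SPI arrays. Brighter Mff (-0.82, -0.56, -1.36 and -0.71), Mfn2 and Rhot1 were also lower in the inner layer of 4 of 4 mice. Both Mfn1 probes (0.46, 1.09, 0.52 and 0.23 for the brighter), the brightest Rhot2 probe (0.41, 0.27, 0.35 and 0.27) and the first 2 Trak2 probes were higher in 4 of 4. How many of all probes went the same way in 4 of 4 mice was not counted. In the limma fit 8 of the 18 member probes were called between SPI and SPE, 5 higher and 3 lower, belonging to 5 genes, where 21.7% of all probes were called (9.53% higher and 12.2% lower). The count was 3 without the replicate block for the animal, and 2 of 16 (brighter Dnm1l and brighter Mff) with a fixed block over the 4 mice with both layers. The groups did not overlap for 5 of the 18, where 9.32% of all probes had that property. SPI is part of both this comparison and the one with WT, so they are not independent.

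**Figure D3:**
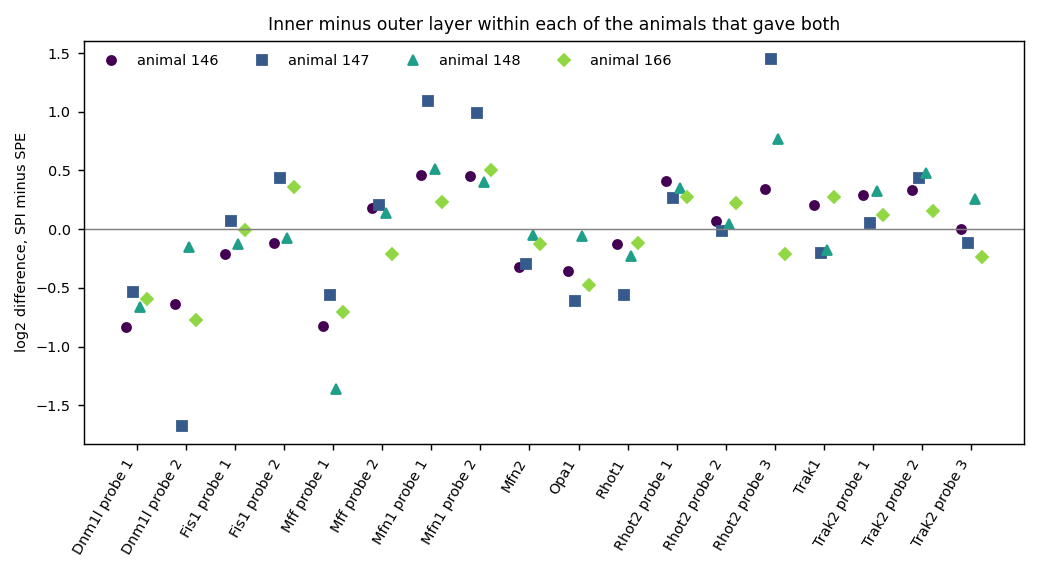
Inner minus outer layer (SPI minus SPE, log2, vertical axis) for each member probe in each of mice 146, 147, 148 and 166 (markers). All 4 markers of both Dnm1l probes lie below 0 and all 4 of both Mfn1 probes and of Rhot2 probe 1 above it, while Opa1 was detected on no SPI array and its markers give no direction.

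Probes of the same gene agreed in part. Of the 6 genes with several analysed probes, 3 (Dnm1l, Fis1 and Mfn1) had all probes on the same side of 0 in SPI against WT, and over all 2085 such genes on the array this share was 55.3%. Both probes were called the same way for Dnm1l and Mfn1, against 8.35% of those 2085 genes. Of the 10 probe pairs within a gene, 5 had the same sign in SPI against WT, 4 in SPE against WT and 6 in SPI against SPE. The pairs with opposite signs in SPI against WT lay within Mff, Rhot2 and Trak2. In the last 2 genes the brightest Rhot2 probe and ILMN_2662962, and the first 2 Trak2 probes, had the same sign. Among others, the Dnm1l pair had opposite signs in SPE against WT and the Fis1 pair in SPI against SPE.

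Direction for the members higher in SPI depends on the scaling of the arrays. The values above use quantile normalisation, which gives every array the same distribution. Scaled instead by the median of the probes detected on every array, the median difference over all probes was 0.34 (SPI minus WT, 2990 probes called higher and 708 lower, against 1402 and 1770 with quantiles). Mfn1 (0.66 and 0.61) and the brightest Rhot2 probe (0.43) stayed above that median, Dnm1l stayed below it, and 5 member probes were called, 3 higher and 2 lower. Scaled by the median of all probes, most of which are not detected, the median over all probes was -0.86 (24 called higher and 5878 lower). There the Mfn1 probes were at -0.54 and -0.58 and Rhot2 at -0.77, below 0 but above that median by 0.32, 0.28 and 0.09. Dnm1l, at -1.89 and -1.79, lay below it. Under that scaling 9 member probes were called in SPI against WT, 0 higher and 9 lower.

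**Figure D4:**
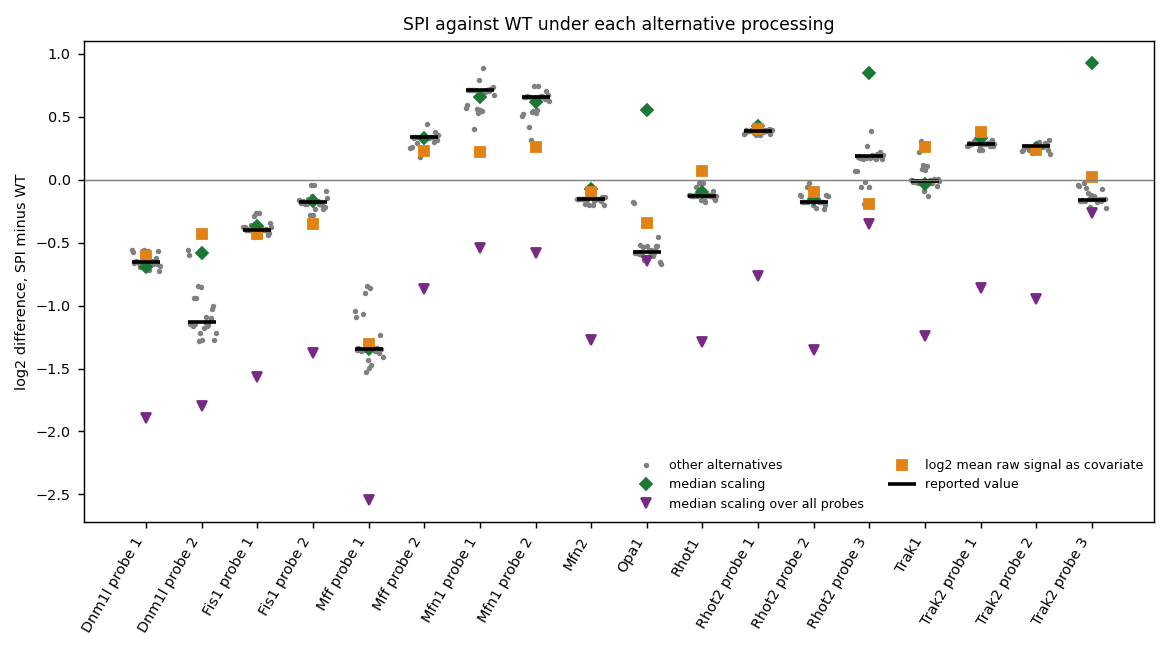
Log2 difference of SPI minus WT (vertical axis) for each member probe as reported (black bars) and under each alternative (points), with both median scalings and the brightness covariate marked. Dnm1l and Mff probe 1 stay below 0 under every setting shown, while Mfn1 and Rhot2 probe 1 turn below 0 when arrays are scaled by the median of all probes, and Opa1 turns above 0 under median scaling.

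The plot of signal against array brightness shows how the members stood on the dim arrays. Brighter Dnm1l was low on all 4 SPI arrays, whose mean raw signal ranged from 119 to 362, and SPE 148, at 279, read 9.34. WT 199, the dimmest WT array at 371, read 9.37, close to SPE 148. Brighter Mfn1 read 8.93 to 9.45 on the 3 dimmest arrays and 8.02 to 8.57 on the rest.

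**Figure D5:**
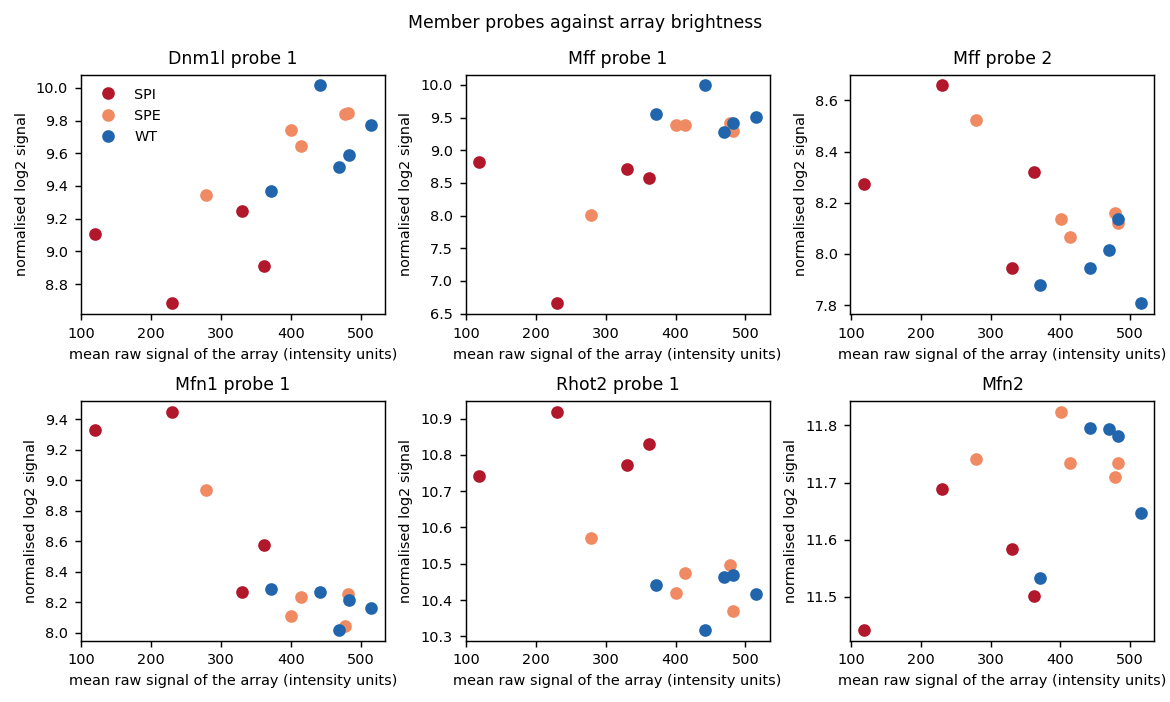
Normalised log2 signal (vertical axes) of 6 member probes against the mean raw signal of the array (horizontal axis, intensity units), coloured by group. Mfn1 probe 1 is highest on the 3 dimmest arrays, and Rhot2 probe 1 is higher on all 4 SPI arrays than on any SPE or WT array.

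Other genes of the same pathways were counted from 5 lists, with the brightest probe standing for each gene, where 24.3% of 9355 features were called in SPI against WT (13.5% higher and 10.8% lower). Of 83 measured genes in the 5 lists, 7 were called higher and 9 lower. Among 23 regulators of fission and fusion 2 were higher and 2 lower, with a median of -0.016 beside 0.035 over all features. Miga2, an outer membrane protein that promotes fusion, was higher (0.41 ± 0.12, limma adjusted p = 0.0200), as was Slc25a46, an outer membrane carrier family protein (0.75 ± 0.25, adjusted p = 0.0382). Mtfp1, an inner membrane protein that promotes fission, was lower (-0.93 ± 0.22, adjusted p = 0.00727), as was Fbxo7, a subunit of a ubiquitin ligase (-0.78 ± 0.24, adjusted p = 0.0280).

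Among 24 transport partners 1 was called higher and 3 lower (median 0.040). Snph, which anchors axonal mitochondria to microtubules, was higher (0.46), and Myo5a, an actin motor, Dync1i1, a dynein chain, and Kif1b, a kinesin, were lower (-0.70, -0.52 and -0.36). Of 13 genes listed for membrane shaping and protein processing 2 were higher, Clpp (a matrix protease subunit) and Mtx1 (an outer membrane metaxin), and 1 lower, Htra2 (an intermembrane space protease). Of 9 mitophagy genes Fkbp8 was higher and Bcl2l13 lower. Of 14 genes that follow mitochondrial content 1 was called higher and 2 lower (median -0.0032): Cycs, the gene of cytochrome c, was higher (0.56), and Vdac1 and Vdac3, pores of the outer membrane, were lower (-0.41 and -1.48). Called genes made up 19.3% of the 83, below the 24.3% over all features, and in SPE against WT none of the 83 genes was called. In SPI against SPE, 6 were called higher and 9 lower (18.1%), where 20.4% of the features were called.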

How the data were processed

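RNA of 14 CA3 samples was measured on Illumina bead arrays, 1 per sample. The authors deposited, per the file headers, raw bead signals (linear intensity, with no normalisation between arrays) and, for each of them, a detection p-value; a second deposited table holds normalised intensity values. The submitters' processing notes list BeadStudio without a version; how it treated background is not stated in the sources. From the raw table, limma 3.58.1 in R 4.3.3 corrected background (neqc: normexp on detection p-values, offset 16), quantile-normalised and took log2. Quantile normalisation makes each value relative to the rest of its array. The arrays differed in mean raw signal and in the number of probes detected. That number was 8413 to 11406 per array in SPI, 10123 to 11843 in SPE and 11303 to 11988 in WT. Both this and the number of arrays limit the precision. Probes with detection p under 0.05 on 4 or more arrays were kept. Symbols are the platform annotation's; 23962 of 23978 named probes matched RefSeq by Entrez identifier and 0 symbols changed.

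All 14 arrays entered 1 limma fit of 3 groups in which mouse was a random block (estimated within-mouse correlation 0.319; degrees of freedom 11 residual, 4.06 prior), so fitted differences depart slightly from differences of group means. Mice were paired across layers by the numbers their sample titles carry. Deviations from the group mean correlated between layers of the same mouse at 0.287, 0.119, 0.648 and 0.305 (mice 146, 147, 148 and 166), against a highest value of 0.287, 0.0697, -0.272 and 0.338 with another mouse. Tests were two-sided, with Benjamini-Hochberg adjustment over 12140 probes. Errors of differences are SE. The groups follow the titles; for the outer samples another label field carries the inner layer's code in brackets. Where no array of a group detected a probe, its level is a bound: the brighter group's mean over the higher of the lowest detected signal and the probe's own. The text names all analysed member probes, up to 5 genes per pathway list with the smallest p in SPI against WT, and up to 2 genes per member with the highest correlation. Members and lists were chosen with earlier results of these data known. The fit was tested on simulated data. Alternatives covered background correction, scaling, filters, probe summary, the block, array weights, brightness and left-out arrays.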

Additional observations from a re-analysis of the deposited data

Results flagged for a closer look

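In 8 of the 54 groups of array values examined (18 probes in 3 groups) 1 array stood far from the others of its group by Dixon's test, where chance flags about 1 in 20 groups. The probes share the same arrays, so the flags are not independent. The share flagged over all probes was not computed, so the count does not set the members apart. Mouse 148 accounts for 6 of the 8. On the brighter Mff probe (ILMN_2732961), SPI 148 read 6.657 beside 8.57 to 8.82 on the other SPI arrays, and SPE 148 read 8.017 beside 9.30 to 9.41 on the other SPE arrays. On the second Mff probe (ILMN_2998593) SPE 148 was high, at 8.523 beside 8.07 to 8.16. Both Mfn1 probes were high on SPE 148 as well, at 8.934 beside 8.04 to 8.25 (ILMN_2950837) and 8.57 beside 7.76 to 7.98 (ILMN_2719296). The brighter Fis1 probe (ILMN_2939295) was low there, at 10.48 beside 10.88 to 10.98. SPI 148 and SPE 148 were among the 3 dimmest arrays, and the part of brightness was not tested. The other 2 were the dimmer Dnm1l probe (ILMN_2660267) on SPI 147, at 5.168 beside 6.13 to 6.26, and Mfn2 (ILMN_2641278) on SPE 146, at 11.82 beside 11.71 to 11.74.

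For 8 of the 18 probes limma called the difference from WT in the inner layer apart from that in the outer layer. That test equals the SPI minus SPE contrast, in which 21.7% of all probes were called. Most of these calls were lost with a fixed block for the mouse, without any block and with mean signal as a covariate, as counted below. Rhot2 ILMN_2662962 kept its call in 4 of 28 alternatives. This difference of differences was -0.6824 and -0.8761 for the Dnm1l probes (ILMN_3111421 and ILMN_2660267) and -0.8957 for the brighter Mff probe. It was 0.5859 and 0.598 for the Mfn1 probes (ILMN_2950837 and ILMN_2719296), 0.3419 and 0.5386 for Rhot2 (ILMN_2740348 and ILMN_2662962) and 0.3402 for Trak2 (ILMN_2641431).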

How the results depend on the processing

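Over all alternatives of SPI against WT, 450 of 510 values for the member probes kept their side of the threshold and, where called, their direction. In SPI against SPE these were 429 of 526. Among them, 21 values against WT and 20 against SPE were uncalled both times but changed sign. In SPE against WT 0 members were called under every alternative run. The counts that follow are of probes, out of 18 as reported. Those with the brightest probe per gene or with averaged probes are instead out of 10 genes. The count of called members in SPI against WT, 8 as reported, was 5 under median scaling, 4 when probes of a gene were averaged, 0 with log2 mean raw signal as a covariate, 4 without the 3 dimmest arrays, and 5 to 9 when 1 array was left out (5 without SPI 148). In SPI against SPE, also 8, it was 2 under median scaling, 0 with scaling by the median of all probes (chosen after seeing the data), 4 with no detection filter, 4 with the brightest probe per gene, 4 when they were averaged, 2 with the covariate, 5 with only the 2 groups compared, 3 without the 3 dimmest arrays, 5 without mouse 148 and 2 to 9 with 1 array left out (2 without SPI 148, 5 without SPE 146). With no replicate block for the animal it was 3, and with a fixed replicate block over the 4 mice with both layers 2 of 16 probes; in SPI against WT, going without the block lost the call of Fis1 (-0.40, adjusted p = 0.0592) and added the brightest Trak2 probe (0.29).

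Signs turned in 8 called values. Under scaling by the median of all probes these were Mfn1 (-0.54 and -0.58) and Rhot2 (-0.77) in SPI against WT, and Mfn1 (-0.45 and -0.41), Rhot2 (-0.64) and Trak2 (-0.69) in SPI against SPE. Under that scaling the median over all probes was -0.86 in SPI against WT and -0.71 in SPI against SPE. Each of these member values lay above that median. Under median scaling the sign of Opa1 turned in SPI against WT (0.55). The causes were not tested. Over all probes, 3172 and 2637 were called in SPI against WT and against SPE; the covariate left 577 and 873, scaling by the median of all probes gave 5902 and 0, and in SPI against SPE no filter gave 1538, no block 1344, the fixed block 678, the 2 groups alone 1643, leaving out the 3 dimmest arrays 1596 and leaving out SPI 148 1077. In SPI against WT the covariate takes up brightness, in which the groups did not overlap. Opa1 and the dimmer Rhot2 and Trak2 probes lie near the detection limit.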

Other observations

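The genes whose signal ran most nearly parallel to a member's brightest probe over the 14 arrays are given as a description; group differences and array brightness are shared by all of them. For Dnm1l they were Gtf2e2 (Pearson's r 0.96), a subunit of a general transcription factor, and Cyb5r4 (0.96), a reductase. For Mff they were Stx18, a syntaxin of the endoplasmic reticulum, and Tppp, a tubulin-binding protein (0.99 for both). For Fis1 they were Ggt7 (0.98) and Hspbp1 (0.97). For Mfn1 they were Rpl3, a ribosomal protein (0.96), and Prf1 (0.95). Mfn2 followed Dpysl2 (0.91), Opa1 Sec23a (0.94), Rhot1 Bbs4 (0.94), Trak1 Nr1h3 (0.86) and Trak2 Ezr (0.93). The Opa1 probe was detected on 9 of the 14 arrays and on no SPI array.

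Members also ran against each other over the 14 arrays. The brighter Dnm1l probe correlated at -0.93 with the brightest Rhot2 probe, at -0.76 and -0.82 with the Mfn1 probes and at 0.83 with the brighter Mff probe. The dimmer Dnm1l probe, detected on 13 of the 14 arrays, correlated at 0.91 with Opa1, detected on 9 of them. Part of that value thus rests on readings at the detection limit.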
